A study of Mus musculus with 24 samples.

Results

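Counts of 9 genes of the red cell and megakaryocyte lineages were read in 24 RNA sequencing libraries of 32D cells, a mouse bone marrow line that grows on the cytokine IL-3. The genes were chosen by name, with earlier results of these data known. The set held the globin genes Hbb-bs, Hbb-bt, Hba-a1 and Hba-a2, the transcription factor genes Gata1, Klf1 and Nfe2, the erythropoietin receptor gene Epor and the integrin gene Itga2b. They are 9 of 55414 genes in the deposited tables, and 8 of them were among the 16167 genes with enough counts to be tested. KO2 and KO1 are both labelled Nat10+/-, with Nat10 deficiency as their genotype, and WT is labelled wild type. Nat10 is the enzyme that places the acetylated base ac4C in RNA, and the study's stated purpose was to measure mRNA lifetimes in relation to it. Actinomycin D, an inhibitor of transcription, was given at 0.05 µg/ml, and how far it stopped mRNA synthesis was not tested. KO2, KO1 and WT were each collected at 0, 3, 6 and 9 h with 2 libraries per time. All 3 grew in 10% serum with IL-3 at 10 ng/ml. KO2 and KO1 are each a single line, so that genotype and line cannot be told apart within either. Neither the making of the lines nor separate cultures for the 2 libraries are described, so p-values reflect spread among libraries that may be technical in origin.

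Haemoglobin carries oxygen in the red cell and is built of alpha-type and beta-type globin chains, whose genes lie in separate clusters and are made in balance in the erythroid cell. GATA1, which binds DNA at GATA sites, and KLF1, which binds CACCC sites, switch on globin and most other erythroid genes, while the NF-E2 complex, of which Nfe2 encodes the haematopoietic subunit, acts from enhancers of both clusters and in platelet formation. The erythropoietin receptor keeps erythroid progenitors alive, and Itga2b encodes CD41, the alpha chain of the platelet fibrinogen receptor, which mouse progenitors and mast cells can carry as well.

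Depth was close to even, from 15361601 to 17338939 gene counts per library. Nat10 itself was present in every group, at 97.2 ± 2.87 CPM (counts scaled to the library total) in KO2, 103 ± 7.62 in KO1 and 112 ± 1.52 in WT at 0 h (SD, n = 2 each). In edgeR's quasi-likelihood test with Benjamini-Hochberg adjustment over all genes, which gave every adjusted p below, KO2 minus WT was -0.21 on the log2 scale (SE 0.048, adjusted p = 0.000291). KO1 minus WT was -0.12 (SE 0.048, adjusted p = 0.0486). A difference is said to be called where its adjusted p is under 0.05. Spike-in RNA gave 3742 to 13774 counts in the KO2 and KO1 libraries and 120 to 257 in WT. The labels state an equal addition to all samples, so KO2 and KO1 libraries stood apart from WT libraries in this quantity, and this split and the genotype cannot be told apart.

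Because the globin genes behaved unlike each other, the 250 bases before their transcription starts are shown first, for 3 genes of the beta cluster and 1 of the alpha cluster. They are RefSeq sequences on GRCm38.p6, 5′ to 3′ along the gene, and capitals mark the box CACCC and the GATA forms on either strand. The GATA forms searched were AGATAA, its variant with a first T, written TGATAA, and both of these with a last G, written AGATAG for one and, for the other, TGATAG.
Hbb-bs, chr7:103827929-103828178, minus strand: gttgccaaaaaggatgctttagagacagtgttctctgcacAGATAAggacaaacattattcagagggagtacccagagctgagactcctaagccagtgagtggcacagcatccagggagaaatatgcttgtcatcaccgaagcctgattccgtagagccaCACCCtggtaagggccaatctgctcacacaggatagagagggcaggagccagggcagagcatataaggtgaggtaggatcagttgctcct
Hbb-bt, chr7:103813924-103814173, minus strand: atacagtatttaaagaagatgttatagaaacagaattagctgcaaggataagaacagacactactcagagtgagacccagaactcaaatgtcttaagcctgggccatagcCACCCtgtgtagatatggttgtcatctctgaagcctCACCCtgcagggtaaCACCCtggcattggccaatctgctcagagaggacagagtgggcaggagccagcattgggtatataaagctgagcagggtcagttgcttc
Hbb-y, chr7:103853208-103853457, minus strand: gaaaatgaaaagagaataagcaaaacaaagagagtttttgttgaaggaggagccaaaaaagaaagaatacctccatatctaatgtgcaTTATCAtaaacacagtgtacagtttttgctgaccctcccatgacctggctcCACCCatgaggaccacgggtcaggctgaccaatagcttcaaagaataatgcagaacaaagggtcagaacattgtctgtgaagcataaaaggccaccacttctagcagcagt
Hba-a1, chr11:32283422-32283671, plus strand: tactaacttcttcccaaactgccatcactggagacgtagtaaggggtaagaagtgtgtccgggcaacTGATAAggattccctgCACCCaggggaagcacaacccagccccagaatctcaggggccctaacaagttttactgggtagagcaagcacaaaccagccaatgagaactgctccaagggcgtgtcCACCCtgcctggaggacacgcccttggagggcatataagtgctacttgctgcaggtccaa
Hbb-bs held AGATAA with its first base 210 bases before the start, and CACCC at 90 bases, which there lies inside the longer box CCACACCC. Hbb-bt held 3 CACCC boxes, at 140, 104 and 89 bases, and none of the 4 GATA forms. Hbb-y, the embryonic beta-type gene of the cluster, held TGATAA on the opposite strand at 162 bases and CACCC at 111. Hba-a1 held TGATAA at 183 bases and CACCC at 167 and 60. Of the other genes described, Klf1 (TGATAA, opposite strand, 80 bases) and Epor (AGATAA, opposite strand, 54 bases) held both kinds, Gata1 held 2 CACCC boxes only, and Itga2b held neither. Over all 32851 promoters in the table, 26.54% held at least 1 GATA form, 52.01% held CACCC and 3.196% held CCACACCC. A match describes letters and shows no binding. A sequence was found for 8 of the 9 genes.

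The paired globin genes are hard to tell apart by short reads, and their counts are uncertain for that reason. The coding sequences of Hbb-bs and Hbb-bt were identical at 443 of 444 bases and those of Hba-a1 and Hba-a2 at 428 of 429, while the upstream windows matched at 185 of 261 aligned positions for the beta pair and 247 of 253 for the alpha pair. Of all 100-base windows in the transcripts, 335 of 666 from Hbb-bs, 273 of 604 from Hbb-bt, 261 of 711 from Hba-a1 and 116 of 566 from Hba-a2 occurred in no other gene's transcripts. For the remaining members and for Hbb-y, every such window was unique. On GRCm39, Hbb-bs (chromosome 7, 103475741 to 103477303) and Hbb-bt (chromosome 7, 103461731 to 103463203) lie on the minus strand, and Hba-a1 (chromosome 11, 32233511 to 32234465) and Hba-a2 (chromosome 11, 32246489 to 32247298) on the plus strand. The reference carries 1 form of the beta cluster among those known in mouse strains, and which form 32D cells carry was not tested. No exon of the 9 genes overlapped an exon of another gene.

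Set against one another per kilobase of exon, the members differed widely in level. Itga2b was far above the rest, with a mean of 182 CPM per kilobase over the 24 libraries (range 138 to 229.8), above 98.6% of the genes tested, and Nfe2 followed at 46.5 (range 29.3 to 86.0). Gata1 averaged 15.5 CPM per kilobase (range 9.64 to 23.9), Hba-a1 12.1 (5.14 to 21.5), Klf1 7.81 (4.32 to 15.3), Epor 7.23 (2.87 to 13.7) and Hbb-bs 4.21 (0 to 12.6). Hbb-bt averaged 0.387 CPM per kilobase and Hba-a2 0.0154. The ranges of Itga2b and Nfe2 overlapped with those of no other member, while those from Gata1 down to Hbb-bs overlapped with their neighbours. Several genes of a finished red cell were nearly absent, though Epb42, a membrane skeleton gene, had the highest mean CPM of the erythroid markers. Slc4a1, the band 3 anion exchanger, had 4 counts in KO2, 4 in KO1 and 4 in WT over 8 libraries each, Car1 and Car2 had 0 in all 24 libraries, and Alas2, the erythroid enzyme that starts haem synthesis, had 93 in KO2, 69 in KO1 and 81 in WT. On the megakaryocyte side Pf4, a platelet chemokine, reached 535 CPM per kilobase, but Itgb3, the partner chain of CD41, had 4 counts in KO2, 2 in KO1 and 8 in WT, and Gp1bb had 0. The cell type given by the labels is a bone marrow lymphoblastocyte. Of the lymphoid markers, Cd4 and Cd8a had 0 counts and Cd3e 1 over all libraries, while Nkg7 and Cd79a had the highest mean CPM. That list summed to 8.91 to 42.5 CPM in KO2, 8.03 to 40.1 in KO1 and 22.2 to 74.8 in WT.

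**Figure D1:**
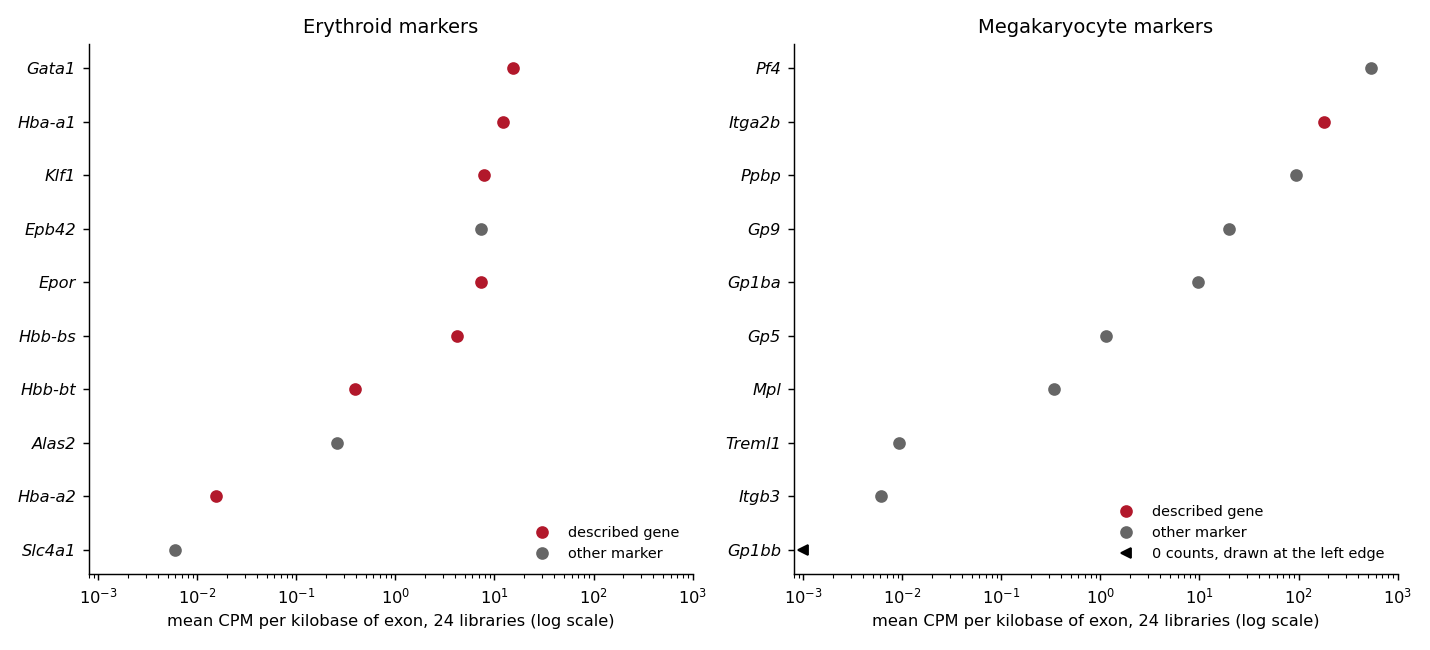
Mean level of 10 erythroid (left) and 10 megakaryocyte (right) marker genes over the 24 libraries, as CPM per kilobase of exon on a log axis, with the genes described here in red. Itga2b stands at 182 and Hba-a2 at 0.0154, and Gp1bb, with 0 counts, is drawn at the left edge.

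Both Nat10+/- lines had counts of Hbb-bs, an adult beta-globin gene, that WT cells all but lacked, and KO2 had several times those of KO1. Before the drug Hbb-bs had 136 and 136 counts in the KO2 libraries, 37 and 34 in KO1 and 1 and 4 in WT. At 3 h it had 141 and 144 in KO2, 33 and 29 in KO1 and 1 and 0 in WT. The 3 sets of libraries did not overlap at either time. At 6 h the counts were 145 and 153 in KO2, 14 and 22 in KO1 and 3 and 1 in WT, and at 9 h 114 and 105 in KO2, 15 and 20 in KO1 and 0 and 1 in WT. KO2 was highest and WT lowest at every time, again with no overlap. Hbb-bs passed the filter on low counts only through libraries of KO2 and KO1, 8 of 8 in each and 0 of 8 in WT, so that a gene found in this way had to differ from WT.

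The size of the difference from WT is limited by the few WT counts. Summed over the 4 times, Hbb-bs had 1074 counts in KO2 and 11 in WT, a depth-adjusted ratio of 94.4 (95% counting interval 52.5 to 189.6), and 204 counts in KO1, a ratio of 18.5 to WT (10.1 to 37.7). Against KO1, which has counts enough for a fitted fold, KO2 was higher by 1.89, 2.24, 2.93 and 2.57 on the log2 scale at 0, 3, 6 and 9 h (adjusted p = 1.97e-11, 3.87e-14, 7.59e-18 and 7.49e-14). Averaged over the times the difference was 2.41 (SE 0.12, adjusted p = 6.37e-34), a 5.31-fold higher level in KO2. Hbb-bs entered the tests against WT through KO2 and KO1 libraries alone, so those tests only describe a difference it had to show. They gave 5.77 (SE 0.38, adjusted p = 3.34e-26) for KO2 and 3.89 (SE 0.50, adjusted p = 1.02e-10) for KO1 at 0 h. At each later time both lines were called higher as well. In a bulk sample, a few cells with much globin mRNA and many cells with little cannot be told apart.

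**Figure D2:**
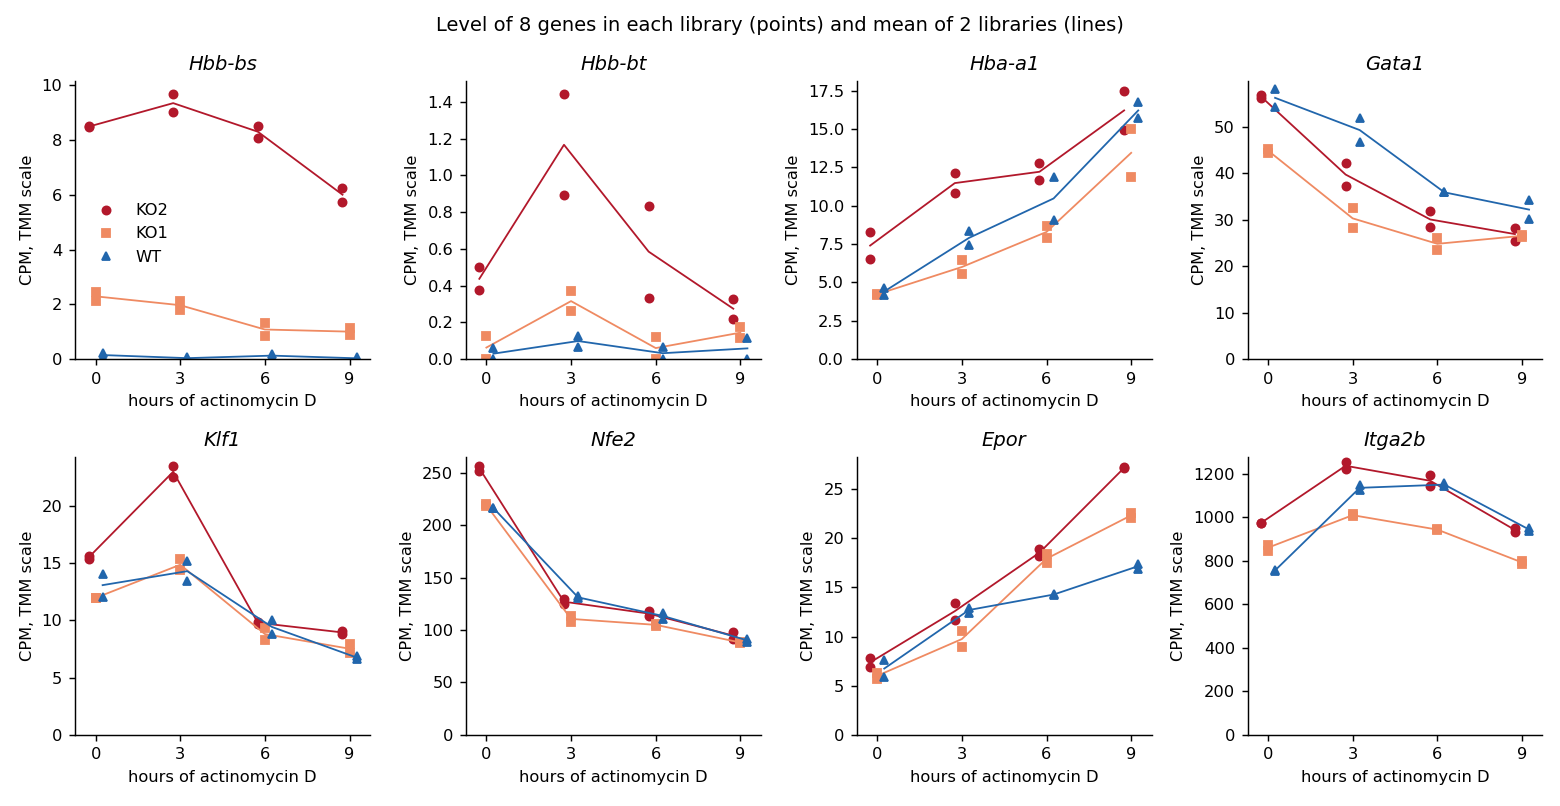
Level of the 8 tested genes in every library (points) and the mean of 2 libraries (lines), as CPM on the TMM scale against hours of actinomycin D, for KO2, KO1 and WT, each axis starting at 0. Hbb-bs separates the 3 groups at each time, Epor and Hba-a1 are higher and Nfe2 and Gata1 lower at 9 h than at 0 h on this scale, of which Hba-a1 in KO2 is level on the spike-in scale.

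The neighbours of Hbb-bs in the beta cluster had few counts, mostly from KO2. Hbb-bt, the other adult beta-globin gene, had 8 and 6 counts at 0 h in KO2, 0 and 2 in KO1 and 1 and 0 in WT, and at 3 h 13 and 23 in KO2, 4 and 6 in KO1 and 1 and 2 in WT. KO2 libraries were above WT at both times. At 6 h it had 6 and 15 counts in KO2, 0 and 2 in KO1 and 1 and 0 in WT, and at 9 h 6 and 4 in KO2, 3 and 2 in KO1 and 2 and 0 in WT. The libraries of KO1 and WT overlapped at 0, 6 and 9 h. Over all times the sums were 81 in KO2, 19 in KO1 and 7 in WT, so that the ratio to WT was 11.2 for KO2 (95% counting interval 5.19 to 28.7) and 2.71 for KO1 (1.09 to 7.62). Hbb-bt passed the filter through 3 libraries of KO2 and none of KO1 or WT, and had to differ in KO2. The fit called it in KO2 against WT at 0 h (count ratio 14.8, interval 2.25 to 624.8, adjusted p = 0.0141), 3 h (11.9, 3.75 to 60.3, adjusted p = 0.000315) and 6 h (18.7, 3.01 to 775.0, adjusted p = 0.003), and at no time in KO1 against WT. KO2 against KO1 was called at 3 h (adjusted p = 0.0475), which leaving out any of the 24 libraries ended, and at 6 h (adjusted p = 0.0189), which leaving out KO1 replicate 1 or KO2 replicate 2 of 6 h ended. Of the calls against WT, the one at 0 h was lost without KO2 replicate 1 or WT replicate 2 and the one at 6 h without KO2 replicate 2 or WT replicate 2.

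Hbb-y, whose protein belongs to embryonic haemoglobin, lies in the same cluster and shares 75.55% of aligned coding positions with Hbb-bs. It had 16 and 14 counts in KO2, 2 and 1 in KO1 and 0 and 0 in WT at 0 h, and sums over all times of 130 in KO2, 22 in KO1 and 1 in WT. KO2 libraries were the highest at each time. The ratio of KO2 to KO1 was 5.73 (95% counting interval 3.63 to 9.45). At 0 h KO2 was 10.6-fold higher than WT with WT set to a floor of 3 counts over its 2 libraries. The exact 95% interval of the ratio of KO2 to WT there begins lower, at 8.07. Hbb-y passed the filter through KO2 libraries alone, the highest level being 0.291 CPM in a KO1 library and 0.0609 in a WT library where the filter asks for 0.61 CPM in 2 libraries, so that it had to be higher in KO2 and its calls there only describe that. The fit called Hbb-y higher in KO2 than in WT at all 4 times and higher in KO1 than in WT at 3 h (adjusted p = 0.0283) and 9 h (adjusted p = 0.0432), though not at 0 h (adjusted p = 0.178) or 6 h (adjusted p = 0.198). Hbb-bh1, a further embryonic gene, had 4 counts in KO2 and 0 in KO1 and WT, and Hbb-bh2 had 0 in every library.

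As a share of all globin counts, the beta cluster made up 57.1% in KO2 (exact binomial 95% interval 52.8 to 61.2%), 36.7% in KO1 (30.1 to 43.7%) and 3.80% in WT (1.41 to 8.08%) at 0 h, on the 2 libraries of each group summed. The single libraries ran from 54.5% to 59.9% in KO2, 35.2% to 38.2% in KO1 and 2.44% to 5.26% in WT. The 3 groups stood clear of each other at all times. At 9 h the share was 29.8% in KO2 (26.8 to 33.0%), 8.88% in KO1 (6.57 to 11.7%) and 0.535% in WT (0.110 to 1.55%), lower than at 0 h in each. Shares within a library need no scaling between libraries. Intervals cover counting error only, and the sources used here name no molecular identifiers. The 100-base windows found in no other gene's transcripts were 50.3% for Hbb-bs, 45.2% for Hbb-bt, 36.71% for Hba-a1 and 20.49% for Hba-a2. With the bases upstream of the other alpha gene searched as well, 100 of 711 windows stayed unique for Hba-a1 and 116 of 566 for Hba-a2. The beta pair was not searched in that way. What this does to the size of the shares was not tested.

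**Figure D3:**
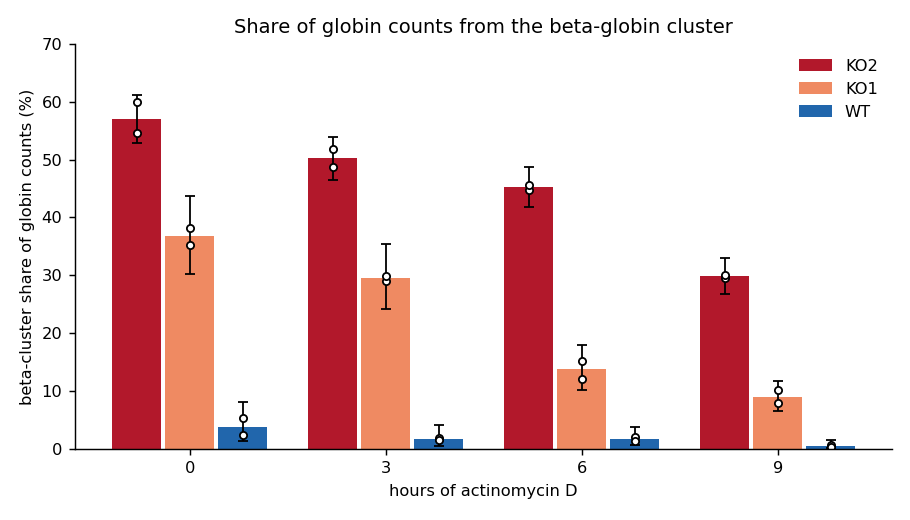
Share of globin counts from the beta cluster (Hbb-bs, Hbb-bt, Hbb-y, Hbb-bh1 and Hbb-bh2 over these plus Hba-a1, Hba-a2 and Hba-x) by hours of actinomycin D, in percent. Bars are 2 libraries summed with exact binomial 95% intervals and open points are single libraries; the share is 57.1% in KO2, 36.7% in KO1 and 3.80% in WT at 0 h.

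The alpha-globin gene Hba-a1 was detected in every library and differed less. At 0 h it stood at 8.26 and 6.54 CPM in KO2, 4.18 and 4.27 in KO1 and 4.62 and 4.20 in WT, and at 3 h at 10.8 and 12.1 in KO2, 6.48 and 5.52 in KO1 and 7.46 and 8.34 in WT. Both KO2 libraries lay above all others at these times. At 6 h the levels were 11.7 and 12.8 CPM in KO2, 7.87 and 8.70 in KO1 and 11.9 and 9.08 in WT, and at 9 h 17.5 and 15 in KO2, 11.9 and 15 in KO1 and 15.7 and 16.7 in WT. KO2 and WT overlapped at both of these times. KO2 was higher than WT by 0.75 (SE 0.17, adjusted p = 0.000305) at 0 h and 0.54 (SE 0.15, adjusted p = 0.00177) at 3 h, and was not called at 6 h (0.23) or 9 h (0.00). At single times KO1 was called lower than WT at 3 h alone, with a difference of -0.40 (SE 0.17, adjusted p = 0.0487). DESeq2 did not call it (adjusted p = 0.0888), nor did the fit without a filter (adjusted p = 0.0977) or 10 of 24 fits that each left out 1 library. Hba-a2, its twin, had 3 counts in all of KO2, from 1 library of 0 h, 0 in KO1 and 1 in WT, and was the member that did not pass the filter. For a count of 0, as in KO1, the exact 95% interval reaches 3.69 counts. Counting used no option for reads that map more than once, and how many reads common to the twins it left out was not tested. Only 100 of the 711 windows of Hba-a1 stayed unique once the bases upstream of Hba-a2 were searched as well.

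Gata1 was lower in both Nat10+/- lines once the drug was on, and in KO1 also before it. At 0 h it stood at 56.9 and 56.2 CPM in KO2, 44.5 and 45.3 in KO1 and 54.4 and 58.2 in WT, with KO1 below the others and KO2 inside the range of WT. At 3 h the levels were 42.3 and 37.2 in KO2, 32.5 and 28.2 in KO1 and 46.7 and 51.9 in WT, without overlap. KO2 differed from WT by 0.01 (SE 0.069, adjusted p = 0.977) at 0 h, which was not called, and by -0.32 (SE 0.075, adjusted p = 0.000306) at 3 h. KO1 differed from WT by -0.33 (SE 0.071, adjusted p = 0.000139) at 0 h and -0.71 (SE 0.078, adjusted p = 3.69e-13) at 3 h. At 6 and 9 h the calls held, with -0.26 and -0.26 in KO2 and -0.53 and -0.28 in KO1. Leaving out WT replicate 2 of 9 h ended both calls at 9 h (adjusted p = 0.252 for KO2 and 0.193 for KO1), leaving out KO2 replicate 1 ended that of KO2 (adjusted p = 0.168), and DESeq2 did not call KO2 there (adjusted p = 0.0582). The KO2 call at 3 h was lost without KO2 replicate 2 (adjusted p = 0.0535) and that at 6 h without KO2 replicate 1 (adjusted p = 0.176). 

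Klf1, the activator that binds the CACCC box of adult beta-globin, was highest in KO2. At 0 h it stood at 15.6 and 15.4 CPM in KO2, 11.9 and 12 in KO1 and 12.1 and 14.1 in WT, a difference from WT that was not called in either line (0.24, adjusted p = 0.114 in KO2 and -0.13, adjusted p = 0.497 in KO1). At 3 h it reached 22.5 and 23.4 CPM in KO2, 14.4 and 15.3 in KO1 and 15.2 and 13.4 in WT. KO2 was there above both other groups, which overlapped, by 0.69 (SE 0.11, adjusted p = 1.77e-07) against WT and 0.63 (SE 0.11, adjusted p = 5.53e-06) against KO1. At 6 h the levels were 9.88 and 9.69 CPM in KO2, 9.32 and 8.28 in KO1 and 8.85 and 9.99 in WT, with no call. At 9 h KO2, with 8.84 and 9.04 CPM, was again above WT, with 6.88 and 6.62, by 0.40 (SE 0.14, adjusted p = 0.0177), a call that each of the 4 libraries of those groups, when left out, ended. KO1 was called different from WT at no time.

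Nfe2 differed by little. At 0 h it stood at 252 and 257 CPM in KO2, 218 and 220.4 in KO1 and 217 and 216 in WT, and KO2 was higher than WT by 0.23 (SE 0.033, adjusted p = 5.37e-09). KO2 was above both others and KO1 just above WT, where no difference was called (0.02, adjusted p = 0.761). At 3 h KO1, at 114 and 107 CPM, was below WT, at 132 and 130.2, with a difference of -0.25 (SE 0.041, adjusted p = 2.33e-07). At 6 h KO1 minus WT was -0.11 (SE 0.041, adjusted p = 0.0226), which DESeq2 did not call (adjusted p = 0.108) and which was lost with RLE scaling (adjusted p = 0.0613), with no filter (adjusted p = 0.0708) and without KO1 replicate 1, KO1 replicate 2 or WT replicate 2 of 6 h. No other time gave a call against WT in either line.

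**Figure D4:**
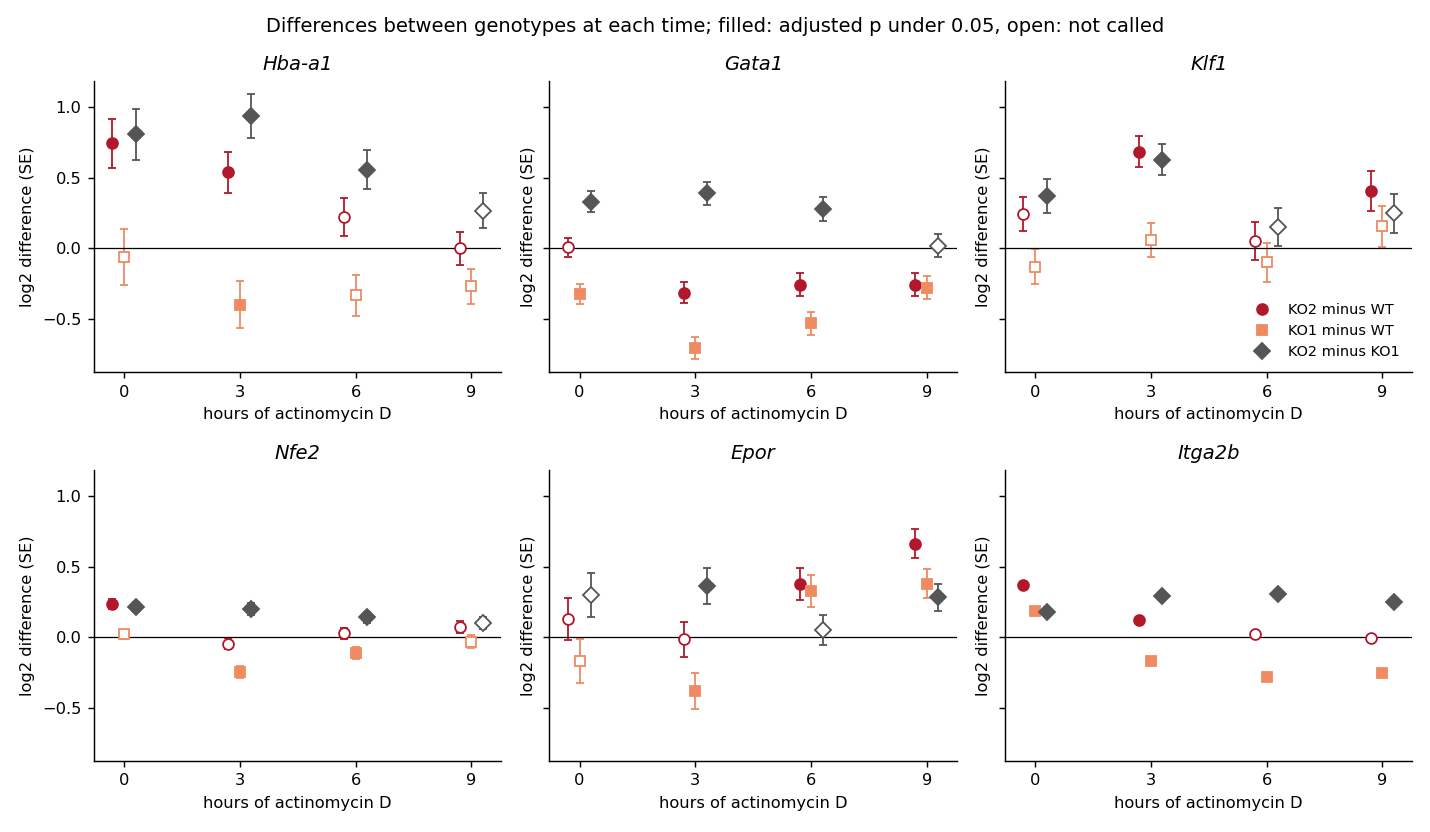
Log2 differences with their SE at 0, 3, 6 and 9 h of actinomycin D for 6 genes, KO2 minus WT, KO1 minus WT and KO2 minus KO1. Filled symbols have an adjusted p under 0.05 and open ones do not; the KO2 minus KO1 points lie at or above 0 in every panel, and KO2 minus WT of Hba-a1 is 0.75 at 0 h and 0.00 at 9 h.

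Epor, the receptor for erythropoietin, was not called different before the drug and was higher in both lines late. At 0 h it stood at 6.88 and 7.85 CPM in KO2, 6.30 and 5.71 in KO1 and 5.86 and 7.63 in WT, and the ranges of KO2 and WT overlapped. At 6 h the levels were 18.2 and 18.9 CPM in KO2, 17.5 and 18.4 in KO1 and 14.3 and 14.3 in WT, and at 9 h 27.2 and 27.1 in KO2, 22.6 and 22.1 in KO1 and 17.4 and 16.9 in WT. All libraries of both lines were above WT at these times, and at 9 h those of KO2 were above KO1. KO2 was higher than WT by 0.38 (SE 0.11, adjusted p = 0.00409) at 6 h and 0.66 (SE 0.10, adjusted p = 2.94e-08) at 9 h, and KO1 by 0.33 (SE 0.11, adjusted p = 0.0146) and 0.38 (SE 0.10, adjusted p = 0.00203). At 3 h KO1 minus WT was -0.38 (SE 0.13, adjusted p = 0.0135) while KO2 was not called (-0.02). The KO1 call at 3 h was lost without KO1 replicate 1 or WT replicate 2 of that time, and the one at 6 h without KO1 replicate 2 or either WT library.

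Itga2b had the most counts of the members, so small differences were resolved. At 0 h it stood at 972 and 975 CPM in KO2, 846 and 874 in KO1 and 756 and 755 in WT, without overlap. KO2 was higher than WT by 0.37 (SE 0.019, adjusted p = 2.31e-32) and KO1 by 0.19 (SE 0.020, adjusted p = 6.90e-14). At 6 h the levels were 1142 and 1193 CPM in KO2, 946 and 940.0 in KO1 and 1142 and 1158 in WT, so that KO1 alone stood apart. KO1 was lower than WT at 3, 6 and 9 h, with differences of -0.17, -0.29 and -0.25 on the log2 scale (largest adjusted p = 5.69e-13). KO2 was higher by 0.12 at 3 h (adjusted p = 2.18e-08) and not called at 6 or 9 h (0.02 and -0.0033). KO1 was thus above WT before the drug and below it after.

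Over the members together, the Nat10+/- lines did not share one direction against WT. In KO2 at 0 h, 5 of 8 members were called higher than WT and 0 lower, where 29.4% of all genes were called, and in KO1 2 were higher and 1 lower, where 27.3% were called. At 3 h KO2 had 5 higher and 1 lower (38.7% of all genes called) and KO1 1 higher and 5 lower (36.8%). At 6 h KO2 had 3 higher and 1 lower (34.3%) and KO1 2 higher and 3 lower (35.7%), and at 9 h KO2 had 3 higher and 1 lower (35.2%) and KO1 2 higher and 2 lower (34.4%). Hbb-bs was among those called higher in both lines at every time. Hbb-bs and Hbb-bt had to differ from WT by the way they passed the filter, and of the other 6 members 3 were called in KO2 at 0 h, Hba-a1, Nfe2 and Itga2b. Averaged over the 4 times, 7 members were higher and 1 lower in KO2 than in WT (49.6% of all genes called), and 1 was higher and 4 lower in KO1 (48.1%). With the 2 libraries of each group summed to 1, Epor (adjusted p = 0.0864), Gata1 (0.0791), Itga2b (0.175) and Nfe2 (0.343) were no longer called in KO2, nor were Hba-a1 (0.141), Itga2b (0.181) and Nfe2 (0.265) in KO1, and with upper-quartile scaling Nfe2 was not called in KO2. These comparisons share the WT libraries.

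Between the lines the members, which were chosen with earlier results of these data known, fell on one side. KO2 was called higher than KO1 for 6 of 8 members at 0 h (16.8% of all genes called, 7.29% higher in KO2), 8 at 3 h (12% called, 5.61% higher), 6 at 6 h (13.4% called, 5.59% higher) and 3 at 9 h (12.4% called, 4.89% higher). It was called lower for 0 members at each time. Several of these calls were near the threshold. At 3 h Epor (adjusted p = 0.0493) was lost in 17 of 24 fits that each left out 1 library, 6 of them without a WT library, and with DESeq2, no filter and upper-quartile scaling, and Hbb-bt was lost in all 24. Klf1 at 0 h and Epor at 9 h were each lost without any 1 of the 4 libraries compared, with DESeq2 (adjusted p = 0.0513 for Klf1 and 0.0925 for Epor) and with no filter (0.0672 for Klf1 and 0.0740 for Epor). At 6 h Gata1, Hba-a1, Hbb-bt and Nfe2 were lost without KO1 replicate 1, Gata1 and Hbb-bt also without KO2 replicate 2 and Nfe2 without KO2 replicate 1. Averaged over the 4 times all 8 tested members were called higher in KO2, where 27.2% of all genes were called and 11.7% were higher, with differences of 2.41 for Hbb-bs, 2.13 for Hbb-bt, 0.64 for Hba-a1, 0.35 for Klf1, 0.26 for Itga2b, 0.25 for Gata1, 0.25 for Epor and 0.16 for Nfe2. Hbb-bt entered the test through KO2 alone and had to be higher there, and the other 7 passed the filter in both lines. When the 2 libraries of each group were summed to 1, with genotype and time fitted over the 12 sums, 4 of the 8 calls stood, those of Hbb-bs, Hbb-bt, Hba-a1 and Itga2b, while Klf1 (adjusted p = 0.0903), Gata1 (0.119), Epor (0.424) and Nfe2 (0.148) kept their sign without passing. Both lines carry the same genotype label, so this difference lies between lines of 1 labelled genotype.

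In the drug series, Epor and Hba-a1 had risen by 9 h and Nfe2, Gata1 and Klf1 had fallen relative to the median gene, in all 3 groups. A CPM level under the drug is relative to the rest of the mRNA. The median of all genes tested moved by 0.09 in KO2, 0.12 in KO1 and 0.13 in WT to 9 h on the TMM scale. With spike-in totals as the scale that median was -1.03 in KO2, 0.20 in KO1 and -0.70 in WT, and with upper-quartile scaling 0.41, 0.42 and 0.45. A scale adds nearly the same amount to every gene, so changes are given below on the TMM scale and then less the median. Most genes were called at each time. At 3 h 70.9% were called in KO2, 71.3% in KO1 and 72.2% in WT, beside 7 of 8 members in KO2, 6 in KO1 and 5 in WT. At 6 h 79.2% were called in KO2, 78% in KO1 and 79.1% in WT, beside 6 members in KO2, 7 in KO1 and 6 in WT. At 9 h it was 80.8% in KO2, 80.5% in KO1 and 81.7% in WT, beside 7 members in KO2, 7 in KO1 and 6 in WT. Between genotypes the change to 3 h was called for 4 members in KO2 against WT (24.7% of all genes called), 3 in KO1 against WT (25.8%) and 1 in KO2 against KO1 (5.87%), and the change to 9 h for 4 in KO2 against WT (25.9%), 2 in KO1 against WT (27.1%) and 0 in KO2 against KO1 (7.51%).

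Epor rose to 9 h by 1.88 in KO2 (SE 0.12), 1.90 in KO1 (SE 0.13) and 1.35 in WT (SE 0.13) on the log2 TMM scale, and less the median of all genes by 1.78 to 1.79 in KO2, 1.78 in KO1 and 1.21 to 1.22 in WT over 4 scalings. On the spike-in scale itself it rose by 0.75, 1.97 and 0.51 in KO2, KO1 and WT. The rise was larger than in WT by 0.54 (SE 0.18, adjusted p = 0.0186) in KO2 and 0.55 (SE 0.19, adjusted p = 0.02) in KO1. Each of those 2 calls was lost without WT replicate 2 of 0 h, without WT replicate 2 of 9 h or without 1 library of its own line at 0 h. Hba-a1 rose by 1.13 in KO2 (SE 0.14), 1.67 in KO1 (SE 0.16) and 1.88 in WT (SE 0.15) on the TMM scale, with 1.03 to 1.04 in KO2, 1.55 in KO1 and 1.75 in WT less the median. On the spike-in scale it was level in KO2 (0.0038, not called) and rose in KO1 (1.75) and WT (1.06). KO2, which began with the most Hba-a1, gained less of it than WT, with a difference of -0.75 (SE 0.21, adjusted p = 0.00392), a call lost without KO2 replicate 1 of 0 h (adjusted p = 0.0834). In KO1 the same comparison gave -0.21 (SE 0.23, adjusted p = 0.577).

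Nfe2 fell, with a change to 9 h of -1.43 in KO2 (SE 0.037), -1.31 in KO1 (SE 0.038) and -1.26 in WT (SE 0.038), and of -1.53 to -1.52 in KO2, -1.43 in KO1 and -1.39 in WT less the median. On the spike-in scale its change was -2.56 in KO2, -1.24 in KO1 and -2.09 in WT. By 3 h it had fallen further than in WT in both lines, with a difference of -0.28 (SE 0.052, adjusted p = 8.29e-06) in KO2 and -0.26 (SE 0.053, adjusted p = 3.08e-05) in KO1. Gata1 had a change to 9 h of -1.07 in KO2 (SE 0.076), -0.76 in KO1 (SE 0.079) and -0.81 in WT (SE 0.074), and of -1.17 to -1.16 in KO2, -0.88 in KO1 and -0.93 in WT less the median. It too had fallen further than in WT at 3 h, with a difference of -0.32 (SE 0.10, adjusted p = 0.012) in KO2 and -0.38 (SE 0.11, adjusted p = 0.00354) in KO1, while at 9 h neither line differed from WT in its change by the threshold. The KO2 difference at 3 h was lost without KO2 replicate 2 of 3 h, WT replicate 1 of 0 h or WT replicate 2 of 3 h, and the KO1 one without KO1 replicate 2 or WT replicate 2 of 3 h. Under upper-quartile scaling the change of Gata1 in WT to 3 h was 0.07 in place of -0.19.

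On the TMM scale Klf1 rose by 3 h in KO2 and KO1, a direction that is turned in KO2 on the spike-in scale, and was lower at 9 h in all groups. At 3 h it was higher than at 0 h by 0.57 in KO2 (SE 0.11, adjusted p = 2.58e-06), while KO1 gave 0.31 (SE 0.12, adjusted p = 0.0177), and in WT by 0.13, which was not called. DESeq2 did not call the rise in KO1 (adjusted p = 0.0719), nor did the spike-in scale (adjusted p = 0.452) or the fits without either KO1 library of 0 h or KO1 replicate 2 of 3 h. On the spike-in scale those values were -0.10 in KO2, 0.15 in KO1 and -0.39 in WT, and less the median of all genes they were 0.44 to 0.47 in KO2, 0.20 to 0.21 in KO1 and -0.02 to 0.00 in WT over 4 scalings. Its change to 9 h was -0.79 in KO2 (SE 0.12), -0.67 in KO1 (SE 0.13) and -0.95 in WT (SE 0.13). The gain to 3 h was larger in KO2 than in WT by 0.44 (SE 0.16, adjusted p = 0.0348), which neither DESeq2 (adjusted p = 0.077) nor the fit without a filter (adjusted p = 0.0724) called, and which was lost in 5 of 24 fits that left out 1 library.

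Itga2b moved little on the TMM scale, and its direction and size depended on the scale. On the TMM scale it rose to 3 h by 0.35 in KO2, 0.23 in KO1 and 0.59 in WT, but on the spike-in scale it fell by 0.33 in KO2 and was not called in KO1 (0.07) or WT (0.08). At 9 h it was -0.05 in KO2, -0.12 in KO1 and 0.32 in WT on the TMM scale, and -0.15 to -0.14 in KO2, -0.24 in KO1 and 0.20 in WT less the median of all genes. On the spike-in scale the change to 9 h was -1.18 in KO2 (adjusted p = 1.41e-23), -0.04 in KO1, which was not called, and -0.50 in WT. Its change to 9 h differed from that in WT by -0.37 (SE 0.027, adjusted p = 4.28e-22) in KO2 and -0.44 (SE 0.028, adjusted p = 1.32e-26) in KO1. Hbb-bs had a change to 9 h of -0.50 in KO2 (SE 0.19, adjusted p = 0.0123), while KO1 gave -1.18 (SE 0.32, adjusted p = 0.00058), which is -0.60 to -0.59 in KO2 and -1.30 in KO1 less the median. Between the lines the difference of the change, 0.68 (SE 0.38, adjusted p = 0.316), was not called. The KO2 change was not called by DESeq2 (adjusted p = 0.0798), with upper-quartile scaling (-0.18, adjusted p = 0.361) or without KO2 replicate 2 of 9 h. On the spike-in scale the change was -1.63 in KO2 (adjusted p = 7.27e-11) and -1.11 in KO1 (adjusted p = 0.00351), so that the order of the lines depended on the scale. WT counts of Hbb-bs were too few to read a change.

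**Figure D5:**
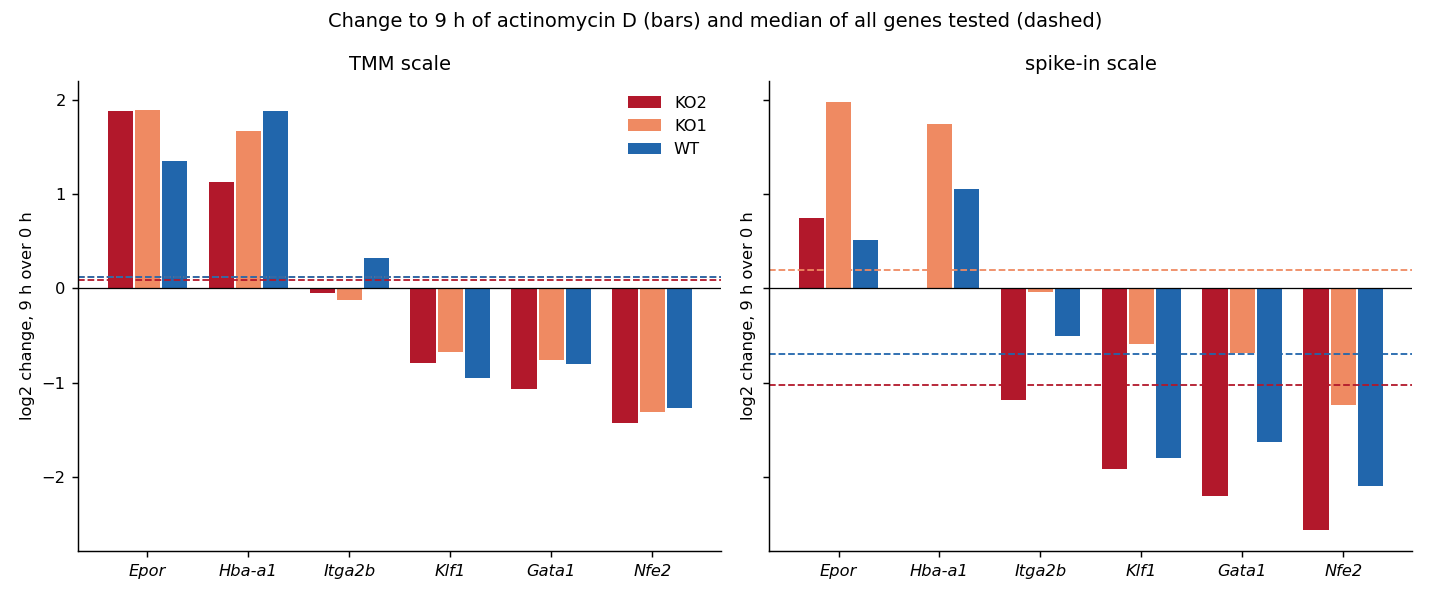
Log2 change at 9 h over 0 h of actinomycin D of 6 genes in KO2, KO1 and WT, on the TMM scale (left) and with spike-in totals as the scale (right); dashed lines are the median of all genes tested in each group. Epor and Hba-a1 lie above the dashed lines and Klf1, Gata1 and Nfe2 below them on both scales, while on the spike-in scale the medians stand at -1.03 in KO2, 0.20 in KO1 and -0.70 in WT.

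Of 17 tested genes of erythroid transcription factors and their partners, 8 were higher and 1 lower in KO2 than in WT at 0 h, and 7 were higher and 3 lower in KO1 (median 0.12 and 0.09, against 0.00 and 0.01 over all genes). Over all genes, 29.4% were called in KO2 and 27.3% in KO1. Gfi1b, a repressor needed for erythroid and megakaryocyte development, stood at 65.7 ± 1.59 CPM in KO2, 40.4 ± 0.24 in KO1 and 37.4 ± 2.55 in WT (SD, n = 2 each), a rise of 0.81 (SE 0.078, adjusted p = 6.00e-16) in KO2. Tal1, a partner of GATA1 on DNA, rose by 0.38 (SE 0.026, adjusted p = 1.63e-24) in KO2 and 0.19 (SE 0.027, adjusted p = 1.01e-08) in KO1, and Myb, a factor of progenitors, by 0.27 (SE 0.036, adjusted p = 8.05e-10) in KO1. Gata2, the progenitor GATA factor, fell by 0.26 (SE 0.033, adjusted p = 2.70e-10) in KO1, while Ldb1, which links enhancers to promoters with GATA1 and TAL1, differed by -0.15 there (adjusted p = 0.000166). By 9 h 5 of the 17 genes had risen and 12 fallen in KO2, 5 and 12 in KO1 and 6 and 11 in WT, where 80.8% of all genes were called in KO2, 80.5% in KO1 and 81.7% in WT. Zbtb7a, a repressor of fetal globin in human cells, fell by 0.16 (SE 0.048, adjusted p = 0.00736) in KO2.

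Genes of haem synthesis moved both ways. Of 12 tested 2 were higher and 3 lower in KO2 at 0 h, and 1 higher and 2 lower in KO1, with medians of 0.05 and -0.05. The called shares of all genes were 29.4% in KO2 and 27.3% in KO1, near those of this list in KO1. Fech, which puts iron into haem, rose by 0.32 (SE 0.085, adjusted p = 0.00165) in KO2 and Cpox, a middle step, by 0.16 (SE 0.042, adjusted p = 0.0016) in KO1. Ppox, the next step, fell by 0.32 (SE 0.094, adjusted p = 0.00452) in KO1, and Alas1, the housekeeping first enzyme, fell by 0.26 (SE 0.094, adjusted p = 0.0231) in KO2. Slc25a37, the mitochondrial iron carrier, was not called in either line, and neither was Alas2, with 1.19 ± 0.36 CPM in KO2, 0.352 ± 0.12 in KO1 and 0.651 ± 0.17 in WT.

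Of 13 tested genes of the red cell membrane and of maturation, 4 were higher and 0 lower in KO2 than in WT at 0 h, a share near the 29.4% called among all genes, and 2 higher and 4 lower in KO1, against 27.3%. Kel, the Kell blood group protein, stood at 8.52 ± 0.55 CPM in KO2, 5.54 ± 0.42 in KO1 and 1.42 ± 0.085 in WT, and rose by 2.58 (SE 0.23, adjusted p = 4.57e-18) in KO2 and 1.96 (SE 0.24, adjusted p = 7.71e-11) in KO1. Rhag, the Rh-associated glycoprotein, chosen after its values were seen, rose by 1.58 (SE 0.11, adjusted p = 2.65e-23) in KO2 and 1.6 (SE 0.11, adjusted p = 4.24e-23) in KO1. Trim58, a ubiquitin ligase of late erythroid cells, fell by 0.63 (SE 0.18, adjusted p = 0.00338) in KO1, and Epb42, a membrane skeleton protein, fell by 0.46 (SE 0.093, adjusted p = 3.46e-05) there. Tfrc, the transferrin receptor, was the list's most abundant gene at 311 ± 11.1 CPM in KO2, 258 ± 12.2 in KO1 and 302 ± 10.9 in WT, and Epb41 differed by 0.12 (SE 0.031, adjusted p = 0.00156) in KO2.

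Of 11 tested genes of erythropoietin receptor signalling, 0 were higher and 4 lower in KO2 at 0 h, and 1 higher and 9 lower in KO1 (medians -0.13 and -0.18). Among all genes 29.4% were called in KO2, near the share of this list, and 27.3% in KO1. The list is shared with IL-3 signalling, and the IL-3 receptor chains Csf2rb and Csf2rb2, near-identical copies, differed by -0.13 (SE 0.027, adjusted p = 3.10e-05) and -0.13 (SE 0.028, adjusted p = 4.46e-05) in KO2. Socs3, a feedback inhibitor, fell by 0.57 (SE 0.15, adjusted p = 0.00249) in KO1, and Ptpn6, a phosphatase that shuts the receptor off, fell by 0.25 (SE 0.033, adjusted p = 4.15e-10) in KO2. Lyn, a kinase, rose by 0.20 (SE 0.038, adjusted p = 7.88e-06) in KO1.

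Of 16 tested megakaryocyte and platelet genes 5 were higher and 3 lower in KO2 at 0 h, and 4 higher and 3 lower in KO1, with medians of -0.14 and -0.22. These counts stand beside 29.4% of all genes in KO2 and 27.3% in KO1. Pf4 stood at 268 ± 8.37 CPM in KO2, 201 ± 2.60 in KO1 and 138 ± 2.19 in WT, and rose by 0.96 (SE 0.032, adjusted p = 4.06e-49) in KO2 and 0.54 (SE 0.033, adjusted p = 4.24e-27) in KO1. F2rl2, a thrombin receptor of platelets, rose by 0.88 (SE 0.14, adjusted p = 4.94e-08) in KO2 and 0.57 (SE 0.14, adjusted p = 0.00089) in KO1. Ppbp, another platelet chemokine, and Selp, P-selectin, were lower in KO2, with differences of -0.69 (SE 0.064, adjusted p = 5.66e-17) and -0.81 (SE 0.10, adjusted p = 2.15e-10), and Nbeal2, needed for platelet granules, fell by 0.50 (SE 0.040, adjusted p = 1.07e-19) in KO1. Fermt3, an activator of integrins, was the most abundant at 799 ± 6.12 CPM in KO2, 709.7 ± 6.44 in KO1 and 709.8 ± 9.42 in WT. By 9 h 11 of the 16 genes had risen and 4 fallen in KO2, 9 and 3 in KO1 and 10 and 4 in WT, beside 80.8% of all genes called in KO2, 80.5% in KO1 and 81.7% in WT. Gp1ba, a chain of the von Willebrand factor receptor, fell by 0.46 (SE 0.13, adjusted p = 0.00309) in KO1.

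Markers of other blood cells moved with the lines as well, and their part in the results above was not tested. The counts below are to be read against the 29.4% of all genes called in KO2 and the 27.3% in KO1 at 0 h. Of 4 tested macrophage markers of 7, 0 were higher and 3 lower in KO2 and likewise in KO1 at 0 h, and the list's sum over all times ran from 38.3 to 221 CPM in KO2, 54.2 to 268 in KO1 and 111 to 292 in WT, with C1qa at 0 counts. Lyz2, the macrophage lysozyme, stood at 0.624 ± 0.087 CPM in KO2, 2.87 ± 0.024 in KO1 and 11.1 ± 0.97 in WT. Of 7 tested neutrophil markers of 10, the calls were 0 higher and 2 lower in KO2 and 2 higher and 1 lower in KO1, with sums of 17.6 to 25.3 CPM in KO2, 32.9 to 47.4 in KO1 and 37.1 to 58.5 in WT. Ctsg, a granule protease, had 2 counts in KO2, 1571 in KO1 and 1243 in WT, and Prtn3, another, fell by 0.79 (SE 0.10, adjusted p = 2.15e-10) in KO2. Ctsg passed the filter through no KO2 library and had to be lower there. Mast cell and basophil markers summed to 155 to 238 CPM in KO2, 154 to 203 in KO1 and 159 to 244 in WT, nearly all from Gata2, with Fcer1a and Tpsb2 at 0 counts, and of the 5 tested of 10, the calls were 0 higher and 1 lower in KO2 and 0 higher and 1 lower in KO1. Of 3 tested lymphoid markers of 7, the calls were 0 higher and 2 lower in KO2 and 0 higher and 1 lower in KO1, with sums of 8.91 to 42.5 CPM in KO2, 8.03 to 40.1 in KO1 and 22.2 to 74.8 in WT. Of 3 tested stromal markers of 7, the calls were 0 higher and 3 lower in KO2 and 0 higher and 3 lower in KO1, with sums of 0.125 to 1.81 CPM in KO2, 0.133 to 1.22 in KO1 and 0.342 to 7.10 in WT, among them Bgn, with 2 counts in KO2, 0 in KO1 and 79 in WT. With so few counts in KO2 and KO1, Bgn passed the filter through WT libraries alone and had to be lower in both lines. Through which libraries the other stromal markers passed is not reported here. The erythroid marker list itself, members included, had 3 of 9 tested genes higher and 0 lower in KO2 and 1 higher and 2 lower in KO1, and summed to 117 to 137 CPM in KO2, 86.7 to 127 in KO1 and 99.4 to 131 in WT. Those higher were Hbb-bs, Hbb-bt and Hba-a1 in KO2 and Hbb-bs in KO1. Of these, Hbb-bs and Hbb-bt had to differ from WT by the way they passed the filter, and only the call of Hba-a1 was not fixed by it. The megakaryocyte markers had 3 of 7 higher and 1 lower in KO2 and 2 higher and 1 lower in KO1, with sums of 1294 to 1896 CPM in KO2, 1109 to 1546 in KO1 and 959 to 1880.0 in WT.

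The genes most like each member were sought over the 12 group means of log2 CPM, which share depth and the time course, among 9634 genes averaging 5 CPM or more. Their likeness is given as Pearson's r, as a description. Epor was most like Ldb1 (0.988), Fbxw5 (0.986) and Pttg1 (0.983), and Nfe2 most like Zfpm1 (0.991), Armh3 (0.988) and Kif4 (0.987), where Zfpm1 encodes FOG1, the cofactor of GATA1. Gata1 was nearest to Zfp983 (0.971), AB124611 (0.957) and Cacng8 (0.957), Klf1 to Elmo3 (0.964), Pdcd11 (0.945) and Lap3 (0.942), Hba-a1 to H2-K2 (0.966), N4bp3 (0.942) and Socs1 (0.938), and Itga2b, the least matched, to Mcm4 (0.912), Anapc13 (0.902) and Rfc5 (0.892). Among the members, Epor and Hba-a1 ran together (r = 0.89), as did Gata1 and Nfe2 (r = 0.87), whereas Epor and Nfe2 ran opposite (r = -0.89). No limit on the mean was set among the members. Hbb-bs and Hbb-bt, with means of 3.24 and 0.272 CPM, gave r = 0.77. Hbb-bs passed the filter only through KO2 and KO1 and Hbb-bt only through KO2, so this r was in part set by the filter. They also have nearly the same coding sequence, and how far shared reads add to r was not tested. Hbb-bs showed r = 0.06 with Hba-a1, whose chain pairs with its own in haemoglobin, and r = 0.03 with Epor.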

How the data were processed

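PolyA RNA from 24 libraries of 32D cells was sequenced with a directional kit, per the labels' protocols. Per the file headers, the authors counted read pairs per gene with featureCounts 1.6.3 (-s 0, so without strand, with pairs required to map at both ends and no option for reads that map more than once), against an annotation file that, by its path, is Ensembl 105 on GRCm39 with ERCC entries added. STAR and DESeq2 appear in the submitters' processing notes, with versions not given in the sources used here. All deposited values are raw counts, and the deposited exon length was used for levels per kilobase.

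Names were found for 52081 of 55414 identifiers. The 92 spike-in transcripts were kept out of library sizes. Genes were filtered with filterByExpr (minimum count 10), leaving 16167, and scaled by TMM. One quasi-likelihood model of the 12 groups gave 30 comparisons (edgeR 4.0.16, limma 3.58.1, R 4.3.3; DESeq2 1.42.0 as an alternative), Benjamini-Hochberg adjusted over all genes and called under 0.05. The method was tested on simulated data. Libraries of a group differed by more than sampling noise and were kept as 2. Counting intervals are exact, at 95%, and cover counting error only, while the floor is a fixed 3 counts.

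Members and gene lists were chosen with earlier results of these data known. The lists (other globins, erythroid transcription factors, haem synthesis, red cell membrane and maturation, erythropoietin receptor signalling, megakaryocyte and platelet genes, and markers of erythroid, megakaryocyte, mast cell and basophil, neutrophil, macrophage, lymphoid and stromal cells) hold 141 genes, of which 140 were matched. Genes named are all members, the 2 most abundant of each list and its largest called rise and fall in each line at 0 h with a mean of at least 1 CPM, and the 3 genes most like each member of at least 5 CPM; others are said to be chosen after their values were seen or are named as at or near 0. Values of some single list genes are not reported here. Promoters were taken from RefSeq on GRCm38.p6 and transcript windows from the reference transcripts. Alternatives were RLE, upper-quartile and spike-in scaling, no filter, DESeq2, a replicate block, pairs summed, 0 h libraries alone and leaving out each library.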

Additional observations from a re-analysis of the deposited data

Results flagged for a closer look

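Some members differed between the groups in a term that tests the difference itself. The changes were compared between genotypes on the log2 scale, where 24.7% of all genes were called for the change to 3 h in KO2 against WT and 25.8% in KO1 against WT. To 3 h, Itga2b gained less than in WT, with differences of -0.24 (SE 0.027, adjusted p = 1.38e-12) in KO2 and -0.36 (SE 0.027, adjusted p = 9.08e-21) in KO1, and KO2 minus KO1 was 0.11 (SE 0.027, adjusted p = 0.00241), where 5.87% of all genes were called. For Nfe2 the differences to 3 h were -0.28 (SE 0.052, adjusted p = 8.29e-06) in KO2 and -0.26 (SE 0.053, adjusted p = 3.08e-05) in KO1. For Gata1 they were -0.32 (SE 0.10, adjusted p = 0.012) in KO2 and -0.38 (SE 0.11, adjusted p = 0.00354) in KO1, and for Klf1 0.44 (SE 0.16, adjusted p = 0.0348) in KO2.

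To 9 h, where 25.9% of all genes were called in KO2 against WT and 27.1% in KO1 against WT, Itga2b differed by -0.37 (SE 0.027, adjusted p = 4.28e-22) in KO2 and -0.44 (SE 0.028, adjusted p = 1.32e-26) in KO1. Epor differed by 0.54 (SE 0.18, adjusted p = 0.0186) in KO2 and 0.55 (SE 0.19, adjusted p = 0.02) in KO1. Hba-a1 differed by -0.75 (SE 0.21, adjusted p = 0.00392) in KO2 and Nfe2 by -0.16 (SE 0.054, adjusted p = 0.0158) in KO2. The Nfe2 call was lost with RLE scaling (adjusted p = 0.0758), DESeq2 (0.128), no filter (0.0559) and without KO2 replicate 2 of 0 h, KO2 replicate 1 of 9 h or WT replicate 1 of 9 h.

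Between the 2 Nat10+/- lines, KO2 minus KO1 over the 4 times was 2.41 (SE 0.12, adjusted p = 6.37e-34) for Hbb-bs, 2.13 (SE 0.48, adjusted p = 0.000122) for Hbb-bt, 0.64 (SE 0.075, adjusted p = 4.12e-12) for Hba-a1 and 0.35 (SE 0.063, adjusted p = 2.83e-06) for Klf1. It was 0.26 (SE 0.0095, adjusted p = 3.79e-45) for Itga2b, 0.25 (SE 0.040, adjusted p = 1.10e-07) for Gata1, 0.25 (SE 0.062, adjusted p = 0.000898) for Epor and 0.16 (SE 0.020, adjusted p = 1.13e-11) for Nfe2. These 8 differences set the lines against each other, with scaling and spread estimated over all 24 libraries.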

How the results depend on the processing

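Of 240 values of members, 208 kept direction and side of the threshold with DESeq2, which gave no adjusted p for 20, 230 without the filter on low counts, 236 with RLE scaling and 225 with upper-quartile scaling. Of 5760 values with 1 library left out, 125 lost a call and 15 gained one. Upper-quartile scaling turned the change of Gata1 in WT to 3 h to 0.065, and that of Itga2b to 9 h to 0.19 in KO1 and 0.27 in KO2, where RLE scaling and DESeq2 both gave 0.0025. With spike-in totals as the scale the turned changes were -0.038 (3 h) and -0.42 (6 h) for Hba-a1 in KO2, -0.54 for Hbb-bs in KO2 to 3 h, and -0.10 in KO2 and -0.39 in WT for Klf1 to 3 h. For Itga2b they were -0.33 to 3 h and -0.88 to 6 h in KO2, -0.33 to 6 h in KO1, and -0.21 to 6 h and -0.50 to 9 h in WT. The scale adds its own shift to every gene, which is given above as the median. Among all genes, DESeq2 called 1335 at 9 h in KO2 against KO1, where edgeR called 2010. With pairs of libraries summed, 3519 were called in place of 8023 in KO2 against WT over the 4 times, 2997 in place of 7778 in KO1 against WT and 451 in place of 4402 in KO2 against KO1, and 11 member calls were lost. That fit has 12 samples in place of 24, and it fits genotype and time without a separate level for each group. Genotype differences that vary over time count as spread in it. With 1 library left out, the genes called in KO2 against KO1 ran from 1227 to 1998 at 3 h, 1394 to 2208 at 6 h and 1274 to 2077 at 9 h, lowest without KO2 replicate 2 of 3 h, KO1 replicate 2 of 6 h and KO1 replicate 2 of 9 h. Whether replicate numbers pair the libraries was not settled. Deviations of same-numbered libraries correlated at -0.041 to 0.153 over 66 pairs of groups (median 0.0079), with 3 pairs over 0.1. Of 24 libraries, 24 correlated best with their own number, a hint from the data and not the design. The 2 libraries of a group deviate by equal and opposite amounts, so their results are not independent. With the replicate number as a block the call of Hbb-bt in KO2 against KO1 at 3 h was lost (1.86, adjusted p = 0.0527) and no other member call changed. The cause of each change was not tested. Depth limits Hbb-bt, Hba-a2 and WT Hbb-bs, where single counts decide.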
